A study of Mus musculus with 24 samples.

Results

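The retina of C57Bl/6 mouse pups kept in room air was compared between postnatal day 12 and postnatal day 10, an interval of 2 days near the end of retinal cell birth and the start of vision. The comparison used 6 of the 24 arrays of the series: those titled as day 12, normoxia (replicates 1 to 3) and those titled as day 10, normoxia (replicates 1 to 3). The series measured total RNA of whole mouse retina on single-colour oligonucleotide arrays, with 3 arrays in each of 8 groups: pups in hyperoxia and pups in room air, at days 7, 8, 10 and 12. The hyperoxic pups, used here only to set the same interval beside the room air one, had been in hyperoxia for 120 hours at day 12 and for 72 hours at day 10. The labels carry no mutation or drug for any group. They do not say whether the 3 arrays of a group came from separate animals or from pooled retinas. The p-values therefore measure the spread between arrays of a group, pooled over all 24 arrays, which may be technical in part. Xist and the Y-linked Eif2s3y differed between the arrays of each age, so these did not all measure the same RNA sample.

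In these days of mouse development the last retinal progenitors leave the cell cycle, and the youngest neurons settle in their layers. Rods and cones extend their outer segments, the membrane stacks that hold the visual pigment and the cascade that turns light into an electrical signal. Bipolar, amacrine and ganglion cells complete their synapses, Müller glia take on their adult handling of water, potassium and glutamate, and the eyelids then open.

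Signals were scaled by the submitters, then put on a common distribution across arrays and expressed as log2, so that a difference of 1 is a doubling. Of 22626 probe sets that are not controls, 15838 were bright enough to be tested, and 14631 of these named 1 gene, for 9266 genes. A probe set was called when limma's Benjamini-Hochberg adjusted p over all 15838 was under 0.05. Markers of the main retinal cell types were bright: in the 6 arrays Sag, rod arrestin, lay between 15.29 and 15.41 on the log2 scale, Crx of photoreceptors between 13.71 and 14.10, Pcp2 of bipolar cells between 13.37 and 13.90, Glul of Müller glia between 13.27 and 13.86, and Nefl of ganglion cells between 13.91 and 14.18. Slc32a1, the vesicular GABA transporter of amacrine cells, was the dimmest marker, between 11.05 and 11.59, still at the 81.6th percentile of all probe sets. Crystallins and other lens genes were very uneven between arrays: the mean of 15 lens genes was 7.50, 11.02 and 14.06 in the day 12 arrays, against 10.93, 9.99 and 12.53 in the day 10 arrays. The mean of 11 pigment epithelium and melanocyte genes was 10.39, 11.02 and 10.32 at day 12, against 10.78, 10.06 and 10.20 at day 10. Both sets overlapped between the ages. Since a whole retina was measured, a lower value from fewer cells of a type cannot be told apart from less RNA per cell.

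Few single genes passed the test over these 2 days. Of the 15838 probe sets, 4 were called: 3 were higher at day 12 (0.0189% of those tested) and 1 was lower (0.00631%). At an unadjusted p under 0.05 there were 1057 probe sets, against 792 expected if no gene differed. Probe sets are not independent, so this count is given as a description. Only 25 probe sets differed by more than 1 on the log2 scale, and the median probe set differed by -0.01 with a median SE of 0.17. Kcnj14, Pdzph1 and Gpsm2 rose and Ppp1r14a fell. When any 1 of the day 12 or day 10 arrays of replicates 2 and 3 was left out, none of the 4 was called.

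Kcnj14 encodes Kir2.4, an inwardly rectifying potassium channel. Its probe set read 10.94, 12.01 and 11.80 in the day 12 arrays, against 9.25, 9.77 and 10.06 in the day 10 arrays. All 3 day 12 arrays lay above all 3 day 10 arrays, and the gap of 0.89 between the nearest arrays was wider than the spread of 0.81 within day 10 and narrower than that of 1.07 within day 12. The difference was 1.89 ± 0.30 (SE of the fit, log2, n = 3 arrays per age), 3.71-fold higher at day 12, with a limma adjusted p of 0.0267. Its room air means were higher at each age: 7.60 at day 7, 7.92 at day 8, 9.69 at day 10 and 11.58 at day 12.

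Pdzph1, a gene named for its PDZ and pleckstrin homology domains, had the lowest p of all. Its probe set read 10.22, 10.56 and 10.63 in the day 12 arrays, against 9.36, 9.14 and 8.75 in the day 10 arrays. The ages did not overlap, and the difference was 1.38 ± 0.19 on the log2 scale, 2.61-fold higher at day 12 (limma adjusted p = 0.00814). Its room air means were also higher at each age, with 7.32 at day 7, 7.72 at day 8, 9.08 at day 10 and 10.47 at day 12.

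Gpsm2 encodes LGN, which binds inhibitory G protein α subunits and orients the mitotic spindle in dividing cells. Its probe set read 11.18, 11.31 and 11.14 in the day 12 arrays, against 10.26, 10.03 and 9.83 in the day 10 arrays. The day 12 arrays were tight and all above day 10. The difference was 1.17 ± 0.20 on the log2 scale, 2.25-fold higher at day 12 (limma adjusted p = 0.0341). The room air means of Gpsm2 at days 7 and 8 were nearly level, at 9.18 and 9.16, before 10.04 at day 10.

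Ppp1r14a encodes CPI-17, an inhibitor of myosin phosphatase that is best known from smooth muscle. Its probe set read 7.61, 7.15 and 7.33 in the day 12 arrays, against 8.28, 9.12 and 8.64 in the day 10 arrays. It was the dimmest of the 4, and at day 12 it lay close to the floor of 7.09 under which signals were not resolved. The difference was -1.32 ± 0.21 on the log2 scale, 2.50-fold lower at day 12 (limma adjusted p = 0.0267). With the floor at the 30th percentile of all signals the difference was -0.76 and was not called (adjusted p = 0.229, within a range of 0.00824 to 0.514 over the alternatives). Its earlier room air means were 8.41 at day 7, 8.59 at day 8 and 8.68 at day 10, so that the lower value was seen at day 12 alone.

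The calls depended on single arrays. With 1 array left out at a time, no probe set was called without day 12 replicate 2, day 12 replicate 3, day 10 replicate 2 or day 10 replicate 3 (unadjusted p under 0.05 in 964, 952, 730 and 1197 probe sets in that order), 2 were called without day 10 replicate 1 and 5 without day 12 replicate 1. All 4 kept their direction throughout, which leaving out arrays could not have changed, since their 2 ages did not overlap. With the lens score as a covariate 5 probe sets were called, these 4 among them, and with the pigment score 3 were called, all of them among the 4.

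**Figure D1:**
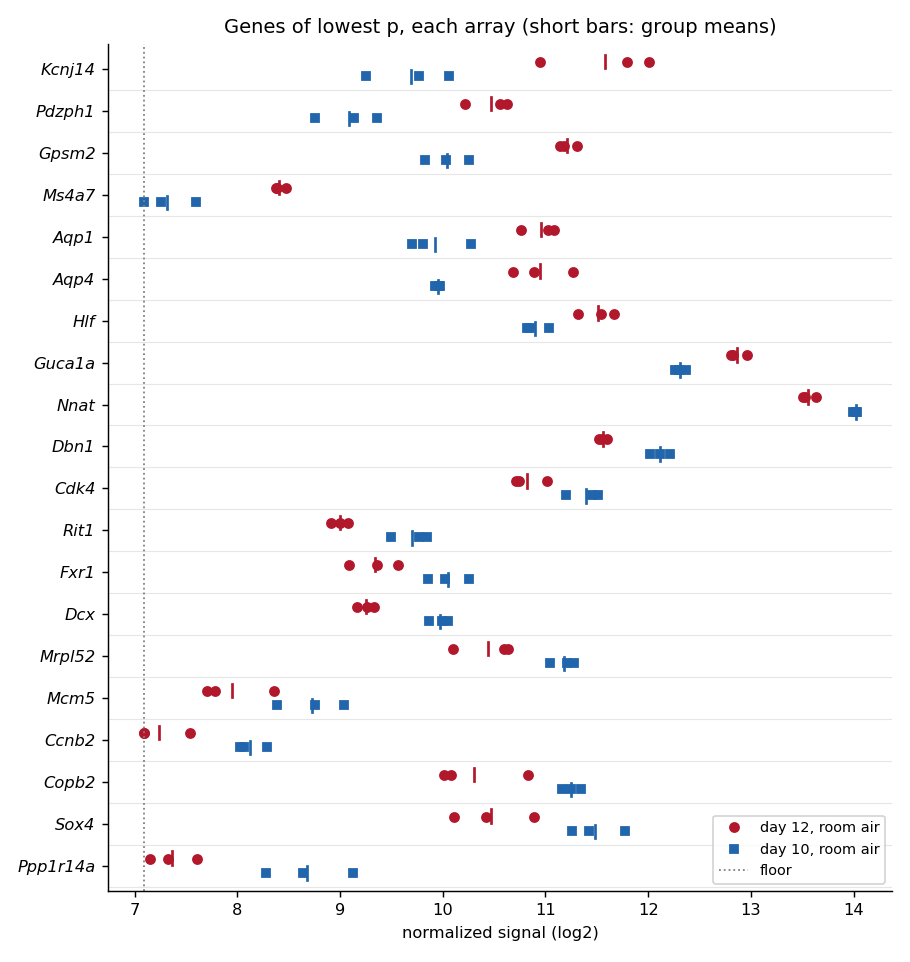
Normalized log2 signal (x axis) of the 20 genes of lowest p (y axis), with circles for the 3 day 12 arrays above squares for the 3 day 10 arrays of room air retina, short bars for group means and a dotted line for the floor of 7.09. The 2 ages do not overlap in any of the 20 genes, among them Kcnj14, whose day 12 arrays start at 10.94 and whose day 10 arrays end at 10.06; the genes were picked for their low p.

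The 16 genes next in order of p did not pass the test. Among them the genes higher at day 12 were Ms4a7 and 4 genes of differentiated cells: Aqp4, the water channel of Müller glia, Aqp1, another water channel, Guca1a, the guanylate cyclase activator GCAP1 of photoreceptors, and Hlf, a clock-controlled transcription factor. Aqp4 read 10.68, 11.27 and 10.89 at day 12, against 9.93, 9.97 and 9.97 at day 10, a difference of 0.99 ± 0.20 on the log2 scale (limma adjusted p = 0.107). A second probe set for Aqp4 gave 0.69 ± 0.29, also without overlap. Aqp1 differed by 1.03 ± 0.22 and Ms4a7, a membrane protein of macrophages, by 1.10 ± 0.23, with adjusted p of 0.109 and 0.120; 1 of the 6 values of Ms4a7 was at the floor.

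The genes lower at day 12 in the same group included some of young neurons and of dividing cells. Sox4, a transcription factor of newborn neurons, read 10.89, 10.11 and 10.42 at day 12, against 11.77, 11.42 and 11.26 at day 10, a difference of -1.01 ± 0.19 (limma adjusted p = 0.0885). Nnat, neuronatin, a membrane proteolipid of developing neurons, read 13.52, 13.51 and 13.64 at day 12, against 14.03, 14.03 and 14.00 at day 10. The difference of Nnat, -0.46 ± 0.09, was small beside that of Sox4, yet the arrays of each age lay within 0.13 of each other. Dcx, the microtubule-binding protein of migrating neurons, differed by -0.72 ± 0.14, and Dbn1, drebrin, which binds actin in growing neurites, by -0.56 ± 0.11, both with an adjusted p of 0.0937.

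Probe sets of 1 gene did not always agree. All 3 probe sets of Cdk4, the kinase that starts the cell cycle in G1, were lower at day 12 without overlap, at -0.57, -0.56 and -0.53, and the 2 probe sets of Dbn1 both gave -0.56. For Sox4 the difference of -1.01 above came from the probe set of lowest p, and was the largest among its tested probe sets. The brightest probe set of Sox4 gave -0.44, and 4 dimmer ones ran between -0.18 and -0.58. Of these dimmer ones, only that at -0.58 was without overlap. For Dcx the brightest probe set gave -0.71, but dimmer ones gave -0.28, with overlap, and 0.33, higher at day 12 without overlap. Fxr1, Copb2 and Rit1 each had 1 probe set that was lower at day 12, by -0.71, -0.94 and -0.70, and another at -0.12, -0.06 and -0.10 whose arrays overlapped.

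**Figure D2:**
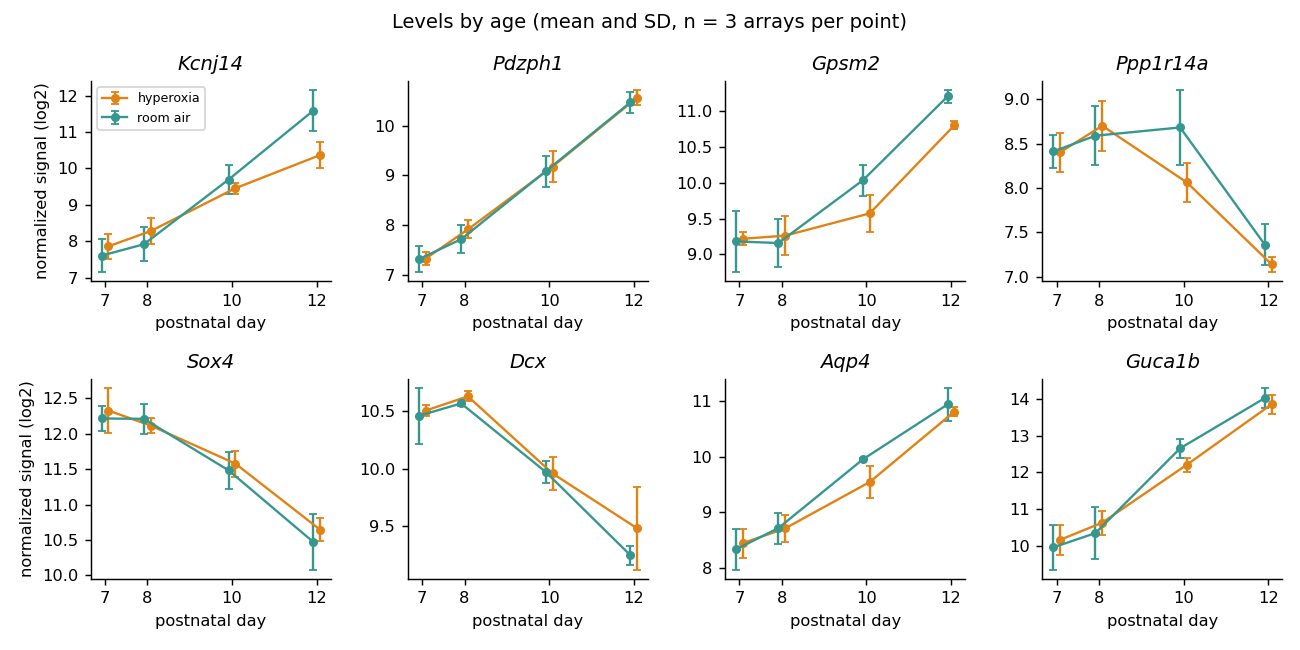
Mean normalized log2 signal (y axis, bars are SD, n = 3 arrays per point) against postnatal day 7, 8, 10 and 12 (x axis) for 8 genes, in hyperoxia (orange) and room air (green). Kcnj14 and Pdzph1 are higher at each age from day 8 onward, at 11.58 and 10.47 at day 12 in room air, while Ppp1r14a in room air is level to day 10 and lower at day 12, at 7.36.

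Gene groups gave a fuller view of the interval than single calls. Members were taken by 1 probe set per gene, the brightest, and each list was described by its median and by how many members had all 3 day 12 arrays above, or below, all 3 day 10 arrays. Over all 9266 genes the median difference was -0.01, with 4446 genes above 0; 653 genes (7.05%) were higher without overlap and 640 (6.91%) were lower without overlap. Of the members of the 42 lists, Kcnj14 was the only one called.

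Rod phototransduction genes were on the whole higher at day 12. Of 21 genes listed, 18 were tested, 16 of them were above 0, and the median difference was 0.23. None was called, 7 were higher without overlap and none was lower without overlap. Guca1b, the guanylate cyclase activator GCAP2, had the largest difference: it read 13.81, 14.35 and 13.93 at day 12, against 12.90, 12.70 and 12.38 at day 10, or 1.37 ± 0.32 on the log2 scale (limma adjusted p = 0.187). Every day 12 array stood well above day 10. A second, much dimmer probe set for Guca1b gave 0.34 and overlapped. Guca1a read 12.81, 12.96 and 12.83 at day 12, against 12.30, 12.37 and 12.26 at day 10, with a difference of 0.55 ± 0.11 (adjusted p = 0.109). Its arrays were tight at both ages. Pde6a, the α subunit of the rod phosphodiesterase that breaks down cyclic GMP, read 12.08, 12.32 and 12.48 at day 12, against 11.38, 11.38 and 11.93 at day 10, a difference of 0.73 ± 0.25 (adjusted p = 0.542). Sag, Pde6g, Rcvrn and Pdc, already among the brightest genes at day 10, differed by between -0.06 and 0.08.

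Genes of the outer segment and of visual pigment handling differed less. Of 22 listed genes 14 were tested, with a median of 0.10, 12 above 0, 5 higher without overlap and none lower without overlap. Nxnl1, which encodes the rod-derived cone viability factor, read 12.62, 12.29 and 12.59 at day 12, against 11.99, 12.25 and 12.08 at day 10, a difference of 0.39 ± 0.15 (limma adjusted p = 0.580). Abca4, the outer segment transporter of retinoids, and Rdh12, a retinol dehydrogenase, gave 0.27 ± 0.12 and 0.21 ± 0.14, again without overlap.

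The promoters of the 4 members of these rod and outer segment lists that had the lowest p and an entry in the promoter table, which leaves out Guca1b and Pde6a, are shown because these genes are read in cells where the transcription factors CRX and NRL act. They are from RefSeq (GRCm38.p6) and run from 250 bases before to 50 after the gene's start, 5′ to 3′ on the gene's strand: Guca1a at chr17:47400557-47400856 on the minus strand, Nxnl1 at chr8:71566600-71566899 on the minus strand, Gnb5, the G protein β subunit that works with RGS9, at chr9:75306038-75306337 on the plus strand, and Abca4 at chr3:122044210-122044509 on the plus strand. Capitals mark every match, on either strand, to TAATCC, the core bound by CRX and OTX2, which reads GGATTA on the other strand, and to TGCTGA, part of the site bound by NRL, which reads TCAGCA on the other strand; the 2 motifs do not share a match.
Guca1a: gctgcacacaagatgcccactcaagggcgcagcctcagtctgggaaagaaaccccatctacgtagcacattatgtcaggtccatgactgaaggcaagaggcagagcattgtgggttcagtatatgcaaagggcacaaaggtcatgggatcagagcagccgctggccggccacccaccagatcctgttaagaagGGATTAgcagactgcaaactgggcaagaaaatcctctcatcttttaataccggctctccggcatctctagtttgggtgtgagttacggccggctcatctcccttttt
Nxnl1: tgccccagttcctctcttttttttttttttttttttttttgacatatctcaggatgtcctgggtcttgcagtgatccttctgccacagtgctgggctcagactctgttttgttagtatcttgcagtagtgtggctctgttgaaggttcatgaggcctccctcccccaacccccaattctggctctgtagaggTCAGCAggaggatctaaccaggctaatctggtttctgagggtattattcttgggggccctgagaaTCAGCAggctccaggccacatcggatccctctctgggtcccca
Gnb5: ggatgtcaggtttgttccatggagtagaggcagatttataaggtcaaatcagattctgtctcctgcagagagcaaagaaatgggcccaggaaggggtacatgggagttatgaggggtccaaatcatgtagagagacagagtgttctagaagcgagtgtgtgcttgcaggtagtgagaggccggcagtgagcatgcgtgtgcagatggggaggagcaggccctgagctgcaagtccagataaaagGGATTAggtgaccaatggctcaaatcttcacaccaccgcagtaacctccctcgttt
Abca4: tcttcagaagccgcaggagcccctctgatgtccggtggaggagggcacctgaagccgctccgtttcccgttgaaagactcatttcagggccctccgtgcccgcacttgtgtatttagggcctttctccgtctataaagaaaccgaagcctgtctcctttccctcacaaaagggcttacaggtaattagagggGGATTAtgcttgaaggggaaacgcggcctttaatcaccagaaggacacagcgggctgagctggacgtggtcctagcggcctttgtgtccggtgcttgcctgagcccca

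Guca1a, Gnb5 and Abca4 each held 1 match to TAATCC, whose first base in the printed window lay 57, 6 and 58 bases before the start, and Nxnl1 held 2 matches to TGCTGA, 58 bases before and 8 bases after the start. TAATCC was found in 11 of the 26 promoters of rod and outer segment genes with an entry, and in 1935 of all 27025 promoters (7.16%). TGCTGA was found in 9 of the 26 and in 5166 of the 27025 (19.1%). A match is a description of the letters in this window.

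Cone genes were mixed. Of 12 listed, 10 were tested, with a median of 0.21, 3 higher without overlap and 2 lower without overlap. Opn1mw, the medium-wavelength cone opsin, read 12.27, 12.65 and 12.68 at day 12, against 11.53, 11.37 and 11.82 at day 10, a difference of 0.96 ± 0.28 (limma adjusted p = 0.390). Opn1sw, the short-wavelength cone opsin, differed by 0.04 ± 0.12 and its arrays overlapped. Gnat2, cone transducin, was 0.34 ± 0.10 higher at day 12, whereas Gnb3, the cone transducin β subunit, and Cngb3, of the cone's cyclic nucleotide-gated channel, differed by -0.33 ± 0.16 and -0.29 ± 0.12. The cone opsins and channel genes therefore did not share a direction.

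Photoreceptor transcription factors had a median of -0.02 over 10 tested genes of 12 listed. Crx and Nrl, which maintain photoreceptor identity, were near 0, at 0.00 ± 0.13 and 0.02 ± 0.08. Esrrb, a nuclear receptor of rods, read 12.35, 12.66 and 12.57 at day 12, against 12.00, 11.83 and 11.91 at day 10. Prdm1, which acts early to hold newborn photoreceptors to that fate, read 11.35, 11.35 and 11.19 at day 12, against 11.69, 11.92 and 11.91 at day 10. The differences, 0.61 ± 0.16 and -0.54 ± 0.14, were both without overlap, and each had a limma adjusted p of 0.259. Otx2, which acts upstream of Crx, was also lower at day 12 without overlap, at -0.42 ± 0.19.

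Genes of progenitors and young neurons were lower at day 12 as a group. Of 22 listed genes 17 were tested: 16 were below 0, the median was -0.31, 8 were lower without overlap and none was higher without overlap, and none was called. The mean of the list was 10.82, 10.82 and 10.83 in the day 12 arrays, against 11.18, 11.23 and 11.08 in the day 10 arrays. No array of either age reached the range of the other. Neurog2, a proneural transcription factor, read 7.82, 7.70 and 8.43 at day 12, against 8.59, 8.91 and 8.96 at day 10, a difference of -0.84 ± 0.24 (limma adjusted p = 0.390). The brightest probe set of Dcx differed by -0.71 ± 0.17 and that of Sox4 by -0.44 ± 0.11. Over the interval before, from day 8 to day 10, the median of the same list was -0.41.

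DNA replication genes had a median of -0.21 over 18 tested of 26 listed, with 14 below 0, 5 lower without overlap and 1 higher without overlap. Mcm5, Mcm7 and Mcm4, subunits of the replicative helicase, differed by -0.78 ± 0.16, -0.52 ± 0.14 and -0.52 ± 0.20. A second probe set of Mcm4 gave -0.02 and overlapped. Of the 3 other probe sets of Mcm7, 1 gave -0.43 without overlap, and the others gave -0.13 and -0.13 and overlapped. For Mcm5 the arrays read 7.79, 8.36 and 7.70 at day 12, against 9.04, 8.76 and 8.38 at day 10, with a gap of 0.03 between the ages. Pcna, which clamps the polymerase to DNA and also serves in repair, was bright at both ages and differed by 0.02 ± 0.12.

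Mitosis genes had a median of -0.05 over 19 tested of 28 listed, with 3 lower and 2 higher without overlap. Ccnb2, a cyclin of mitosis, Ube2c, a ubiquitin-conjugating enzyme of mitotic exit, and Cdk1, the mitotic kinase, differed by -0.89 ± 0.16, -0.79 ± 0.19 and -0.69 ± 0.28. Ccnb2 read 7.09, 7.09 and 7.54 at day 12, against 8.29, 8.02 and 8.06 at day 10 (limma adjusted p = 0.0564). Its first 2 day 12 values are at the floor, and over the alternatives its difference ran between -1.07 and -0.21. Most of the list was dim at both ages, and its median changed sign, to 0.04, with the submitters' own scaling.

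Axon growth and guidance genes had a median of -0.06 over 23 tested of 32 listed, 4 lower and 2 higher without overlap. Dpysl5, a collapsin response mediator of growth cones, Gap43, a growth cone protein, and Basp1, another growth cone protein, differed by -0.49 ± 0.12, -0.31 ± 0.11 and -0.25 ± 0.09, all without overlap. Dpysl5 had the lowest limma adjusted p of the list, 0.259.

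Genes of mature signalling leaned the other way. Of 28 listed genes for the ribbon synapse and vesicle release 23 were tested, with a median of 0.15, 16 above 0, 5 higher without overlap and none lower without overlap. Cacna1f, the calcium channel of the photoreceptor terminal, read 11.41, 11.55 and 11.37 at day 12, against 11.05, 11.24 and 11.02 at day 10. Rims2, a scaffold of the release site, and Cplx4, a complexin of ribbon synapses, differed by 0.31 ± 0.12 and 0.33 ± 0.15, and Cacna1f by 0.34 ± 0.13. The lowest limma adjusted p of these was 0.595.

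Receptors for GABA, glycine and glutamate had a median of 0.23 over 13 tested of 28 listed, 11 of them above 0, with 2 higher and 1 lower without overlap. Gabrr2, the ρ2 subunit of the GABA receptor at bipolar cell terminals, read 10.38, 10.26 and 10.34 at day 12, against 9.58, 9.01 and 9.17 at day 10, a difference of 1.07 ± 0.24 (limma adjusted p = 0.167). Grik5, a kainate receptor subunit, was lower, at -0.56 ± 0.21.

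Potassium channel genes had a median of 0.24 over 21 tested of 33 listed, 18 above 0, with 6 higher without overlap and none lower. Beside Kcnj14, Kcnip3, which encodes a calcium-binding channel partner, read 9.59, 9.64 and 9.58 at day 12, against 9.25, 8.90 and 9.13 at day 10, a difference of 0.51 ± 0.16 (limma adjusted p = 0.444). Kcnab1, an accessory β subunit, gave 0.27 ± 0.10. Kcnj14 stood apart in size within the list, at 1.89 where the next gene was at 0.51.

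Müller glia genes had a median of 0.05 over all 21 listed, with 14 above 0, 5 higher without overlap and none lower without overlap. Clu, clusterin, a secreted chaperone, read 13.28, 13.53 and 13.22 at day 12, against 13.08, 12.60 and 12.66 at day 10, a difference of 0.56 ± 0.19 (limma adjusted p = 0.538). Glul, glutamine synthetase, which clears glutamate, read 13.70, 13.80 and 13.86 at day 12, against 13.58, 13.32 and 13.27 at day 10, a difference of 0.40 ± 0.16. The other members higher without overlap were Aqp4, described above, Rlbp1, a retinoid carrier, and Abca8a, a transporter.

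Circadian clock genes had a median of 0.20 over 18 tested of 20 listed, 14 above 0, 6 higher and none lower without overlap. Hlf read 11.54, 11.66 and 11.32 at day 12, against 11.03, 10.82 and 10.85 at day 10, a difference of 0.61 ± 0.13 (limma adjusted p = 0.109). Bhlhe41, a repressor of clock transcription, and Per3, a period protein, gave 0.63 ± 0.22 and 0.39 ± 0.17. A dimmer probe set of Per3 gave -0.19 ± 0.17 and overlapped. The hour of tissue collection was not given in the labels, and its part in these values was not tested. Glucocorticoid-responsive genes had a median of 0.23 over 12 tested of 15 listed, 4 higher without overlap and none lower, with Glul shared between that list and the glial one.

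**Figure D3:**
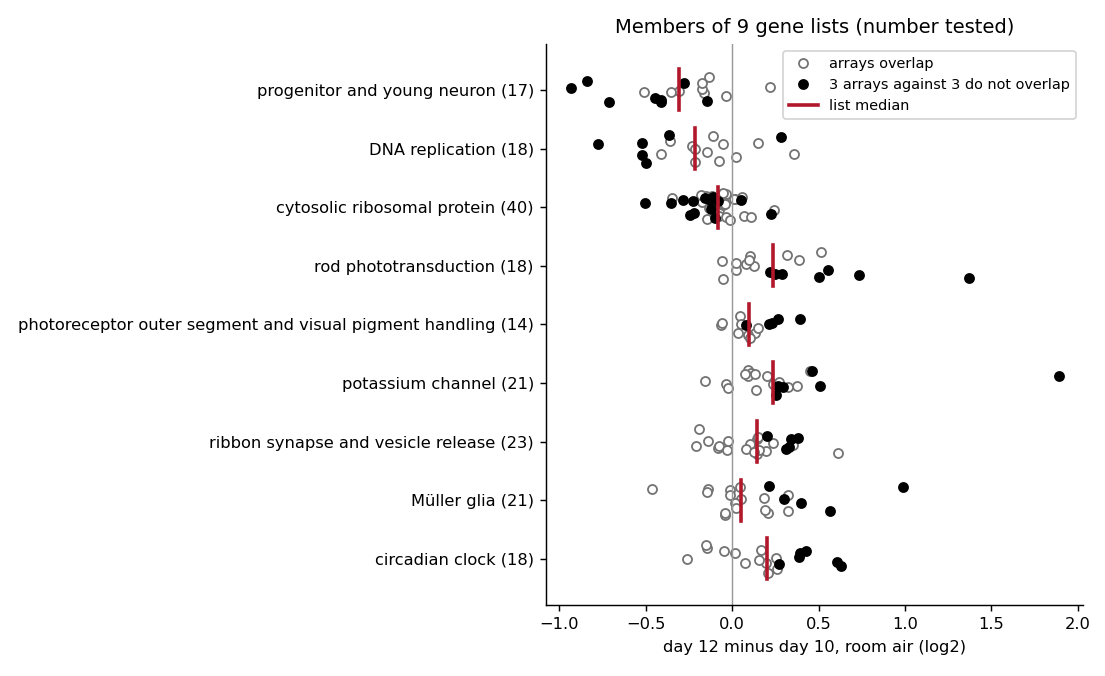
Day 12 minus day 10 in room air (x axis, log2) for each tested member of 9 gene lists (y axis, number tested in brackets), filled where the 3 day 12 arrays do not overlap the 3 day 10 arrays, with a red bar at the list median. Progenitor and replication medians lie at -0.31 and -0.21, rod phototransduction and potassium channel medians at 0.23 and 0.24.

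Other neurons showed little shift as groups. The medians were -0.05 for bipolar cell genes, 0.05 for amacrine cell genes, 0.05 for horizontal cell genes and 0.11 for ganglion cell genes, over 15, 16, 4 and 15 tested genes. Calb1, calbindin, and Lhx1, a transcription factor, both of horizontal cells, went apart: Calb1 differed by 0.48 ± 0.17 and Lhx1 by -0.51 ± 0.21, each without overlap. Gng13, a G protein γ subunit of ON bipolar cells, Vip, a neuropeptide of amacrine cells, and Nefh, the heavy neurofilament of ganglion cells, gave 0.44 ± 0.16, 0.42 ± 0.17 and 0.41 ± 0.20, all with limma adjusted p of 0.594 or more.

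Cytosolic ribosomal protein genes were slightly lower at day 12 and moved little from array to array. Of 75 listed 40 were tested, 32 of them below 0, with a median of -0.08, 12 lower and 2 higher without overlap. Rpl8, of the large subunit, read 13.66, 13.82 and 13.85 at day 12, against 14.04, 14.23 and 14.12 at day 10, a difference of -0.35 ± 0.10 (limma adjusted p = 0.400). Rps26 and Rpl35 gave -0.22 ± 0.08 and -0.28 ± 0.12. Respiratory chain and ATP synthase genes had a median of -0.02 over 67 tested, with 2 higher and 2 lower without overlap, and glycolysis genes a median of 0.02 over 14 tested.

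Vessel genes had no common direction in room air. None of 22 tested endothelial genes was free of overlap, and the medians were -0.01 for endothelial genes, 0.05 for pericyte and smooth muscle genes, -0.09 for vascular basement membrane genes and -0.03 for angiogenic factors and receptors. The sign of the endothelial and angiogenic medians turned, to 0.04 and 0.02, with the submitters' own scaling. Vtn, vitronectin, an adhesion protein that pericytes express, read 13.50, 13.62 and 13.83 at day 12, against 13.04, 12.92 and 12.79 at day 10, a difference of 0.74 ± 0.19 (limma adjusted p = 0.282). Cxcr4, the receptor of the chemokine CXCL12, and Tgfb2, a growth factor, were lower without overlap, at -0.60 ± 0.17 and -0.35 ± 0.13, and Epor, the erythropoietin receptor, was higher, at 0.59 ± 0.23. Targets of the hypoxia-inducible factor HIF had a median of 0.05 over 27 tested, with 2 higher and none lower without overlap.

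The same interval was also measured in the hyperoxic pups, with no array in common. There 35 probe sets were called higher at day 12 (0.221% of those tested) and 31 lower (0.196%). All 4 probe sets called in room air had the same sign in hyperoxia, and 2 of them, Pdzph1 and Gpsm2, were called there as well. Of the 66 called in hyperoxia, 64 had the same sign in room air, where 63.9% of all probe sets had a shared sign, and 48 were without overlap in room air in that direction. Over all genes, by 1 probe set each, 7.05% were higher and 6.91% were lower without overlap in room air. Across the 15838 probe sets the 2 changes had a Pearson r of 0.40, given as a description, since probe sets are not independent.

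Of the 20 genes of lowest p in room air, 17 had the same sign in hyperoxia and 8 were called there. Pdzph1 differed by 1.39 ± 0.19 in hyperoxia, against 1.38 ± 0.19 in room air. Aqp1, Aqp4 and Gpsm2 differed by 1.57 ± 0.22, 1.27 ± 0.20 and 1.23 ± 0.20 in hyperoxia, all called. Sox4, Cdk4, Nnat and Guca1a, which had missed the threshold in room air, were called in hyperoxia at -0.93 ± 0.19, -0.77 ± 0.12, -0.59 ± 0.09 and 0.53 ± 0.11. Kcnj14 averaged 10.37 ± 0.35 at day 12 and 9.45 ± 0.15 at day 10 in hyperoxia (SD, n = 3 each), a difference of 0.91 ± 0.30 that was not called (limma adjusted p = 0.252).

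No probe set passed the test of the difference between the 2 changes. The hyperoxia change minus the room air change had 368 probe sets at an unadjusted p under 0.05 by limma, fewer than the 792 expected without change. The smallest adjusted p was 0.412 and none was called, nor was any with the trend and robust settings. For Kcnj14 that difference was -0.98 ± 0.43. The 5 genes of lowest p were Prss44, a serine protease, at 1.21 ± 0.22, Ccnb2 at 1.04 ± 0.22, Rgs7, a regulator of G protein signalling, at -0.80 ± 0.19, Lipa, lysosomal acid lipase, at -0.77 ± 0.19, and a dim probe set of Per3 at 0.90 ± 0.25. The 2 other probe sets of Lipa overlapped in room air and each differed by 0.00 there. Ccnb2 was low at both ages in hyperoxia, at 7.46 ± 0.15 at day 12 and 7.31 ± 0.20 at day 10 (SD, n = 3 each), where room air day 10 had stood at 8.13.

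Gene groups in hyperoxia were set beside those of room air on the background of 833 of 9266 genes higher without overlap (8.99%) and 746 lower (8.05%). Rod phototransduction genes had a median of 0.30 in hyperoxia, against 0.23 in room air, with 8 higher without overlap, and Guca1a and Guca1b were called. Progenitor and young neuron genes had a median of -0.39, against -0.31 in room air, with 9 lower without overlap. Potassium channel genes had a median of 0.25, against 0.24 in room air. Some groups had less alike medians: glycolysis genes stood at 0.23 in hyperoxia, with all 14 above 0 and 9 higher without overlap, against 0.02 in room air, HIF targets at 0.20 with 10 higher without overlap, against 0.05 in room air, and vascular basement membrane genes at 0.38, against -0.09 in room air. Whether these list medians differ between conditions was not tested.

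**Figure D4:**
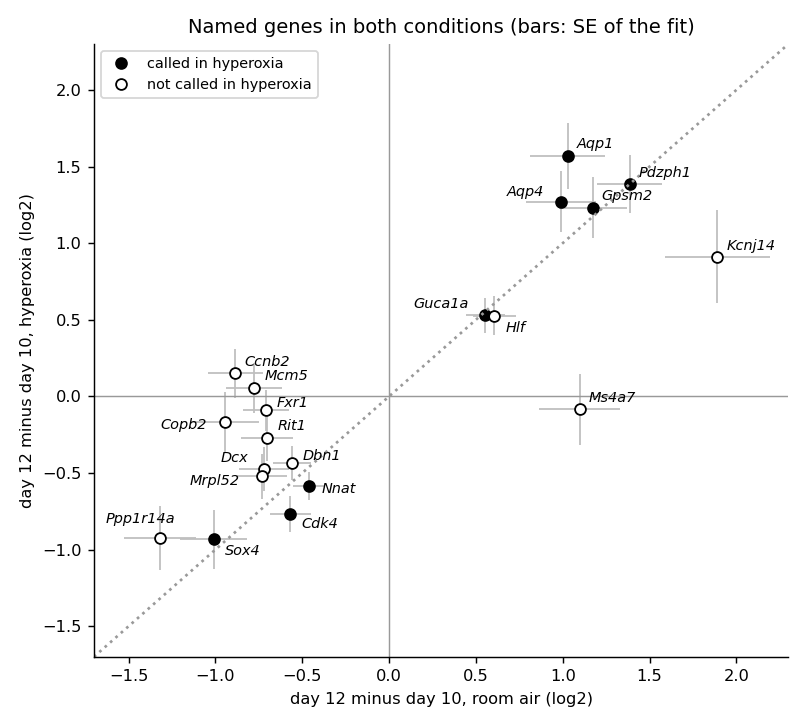
Day 12 minus day 10 in hyperoxia (y axis, log2) against the same in room air (x axis, log2) for the 20 named genes, with bars for the SE of the fit, filled points for genes called in hyperoxia and a dotted line of equality. Pdzph1 lies on the line at 1.39 and 1.38, Kcnj14 below it at 0.91 and 1.89, and Ccnb2, Mcm5 and Ms4a7 have opposite signs in the 2 conditions.

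The change from day 10 to day 12 was finally set against the change from day 8 to day 10 in room air, an equal interval that shares the day 10 arrays. No probe set passed that test by limma. An unadjusted p under 0.05 was seen in 743, against 792 expected without change. The smallest adjusted p was 0.246, and none was called with the trend and robust settings. The lowest p belonged to Kif11, a spindle motor, whose dimmer probe set read 8.32, 7.71 and 8.10 at day 12, against 7.51, 7.09 and 7.42 at day 10. Its change in the later interval minus that in the earlier one was 1.73 ± 0.30, but the brighter probe set of Kif11 gave -0.12 and overlapped. Ms4a7, Pllp, a myelin proteolipid, Tcl1b4 and Slu7, a splicing factor, came next, at 1.93 ± 0.40, 2.61 ± 0.56, 1.96 ± 0.44 and -0.99 ± 0.23. The 3 other probe sets of Slu7 overlapped between day 12 and day 10 in room air and differed by -0.03, 0.18 and -0.09. In Kif11, Ms4a7 and Pllp day 10 replicate 2 was at the floor; without that array the differences were 1.48, 1.71 and 1.84, 461 probe sets had an unadjusted p under 0.05, and none was called. The list medians of the earlier interval were 0.45 for rod phototransduction, 0.24 for Müller glia and -0.41 for progenitors and young neurons, and those of the later interval 0.23, 0.05 and -0.31; since the day 10 arrays enter both, no share or correlation between the intervals is given.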

How the data were processed

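Total RNA of C57Bl/6 mouse retina was measured on 24 single-colour arrays, 3 in each of 8 groups by the labels. The deposited table holds linear intensity values that the authors had scaled: the 2% trimmed mean of every array lies between 1500.35 and 1500.40. The software and method behind this scaling were not given in the sources used here. Gene symbols came from the platform annotation: of the probe sets that are not controls, 20380 name 1 gene, 691 several and 1555 none.

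Array medians spanned 0.253 on the log2 scale, so the log2 values of all 22690 probe sets were quantile normalized. Values under the 20th percentile (a signal of 136.2, log2 7.09) were raised to it. The 64 control probe sets were then left out, which left 22626. Probe sets with a mean under the 30th percentile were left out (6788), and 0.343% of the tested values lay at the floor. limma 3.58.1 (R 4.3.3; lmFit and eBayes) was fitted to all 24 arrays with 8 group means, 16 residual and 3.54 prior degrees of freedom. Adjusted p are Benjamini-Hochberg over the 15838 probe sets tested. The number of arrays limits the precision. The procedure was tested on simulated data with noise drawn independently for each array, so that test does not cover deviations shared between arrays.

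Fewer than 5 genes were called, so by the rule for naming genes the 20 of lowest p are named, with up to 3 of lowest p in each of 42 lists and 5 in each other contrast. Other genes were named after their values were seen. The comparison, its members and the lists were chosen with earlier results of these data known. Replicate numbers were not taken as pairs in the main fit, though deviations from group means correlated at 0.40, 0.04 and 0.47 for numbers 1, 2 and 3. Alternatives were the scaling, floor, filter, arrays fitted, prior, replicate block, 1 probe set per gene, neighbouring tissue covariates and leaving out arrays.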

Additional observations from a re-analysis of the deposited data

How the results depend on the processing

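The 4 calls of day 12 minus day 10 in room air were few and their number depended on the setting. Counts were 4 with the submitters' scaling, 6 (6 higher, 0 lower) with the floor at the 30th percentile, 3 of them among the 4 and Ppp1r14a not called, 3 (1 higher, 2 lower) with no filter, where only Pdzph1 of the 4 was called, 7 (3 higher, 4 lower) with trend and robust settings, and 5 (2 lower) both with 1 probe set per gene and with the lens score. In either direction they were 0 with the filter at the 50th percentile, the 6 arrays alone and the 12 room air arrays alone. There 814, 1100 and 948 probe sets had an unadjusted p under 0.05, in that order. The filter at the 50th percentile left out Kcnj14, Pdzph1 and Ppp1r14a before the test. Gpsm2 was still tested there and was not called (limma adjusted p = 0.0667). The fits to the 6 arrays and to the 12 room air arrays have fewer degrees of freedom by construction. For the other changes in count the cause was not tested. With arrays left out 1 at a time or 1 replicate number at a time, the latter chosen after seeing the data, counts ran from 0 to 5, higher ones from 0 to 2 and lower ones from 0 to 3. The fit with a replicate block called 7 (4 higher, 3 lower), all 4 among them. Deviations from group means correlated at 0.40 between the 2 ages for replicate 1 and at 0.47 for replicate 3. Across these numbers they correlated at -0.46 and -0.37. Day 10 replicate 2 correlated at 0.11 with day 12 replicate 1 and at 0.04 with day 12 replicate 2. Whether the numbers mark pairs or batches was not tested. The hyperoxia change minus the room air change had 1 call (higher) with no filter. The later minus the earlier room air change had 1 with the submitters' scaling (higher) and 1 with no filter (lower). The 20 genes of lowest p kept their sign under every alternative run. In all 20 the 2 ages did not overlap, so leaving out arrays could not have turned a sign. List medians moved more. Those of rod phototransduction (0.16 to 0.27), potassium channels (0.17 to 0.31), progenitors and young neurons (-0.37 to -0.17) and DNA replication (-0.32 to -0.11) kept their sign. So did that of the clock list, though it was 0.10 without both arrays of replicate number 2, that of cones (0.07 without day 12 replicate 3), that of glucocorticoid targets (0.08 without day 12 replicate 2) and that of transmitter release (0.07 without both arrays of replicate number 2). The medians of bipolar (-0.11 to 0.01), amacrine (-0.03 to 0.16), horizontal cell (-0.03 to 0.28), pericyte (-0.06 to 0.17), endothelial (-0.13 to 0.14) and basement membrane genes (-0.19 to 0.02) changed sign when arrays were left out.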

Other observations

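Some groups not described above also held members without overlap. Immediate early genes had 5 higher and 3 lower of 21 tested, with a median of 0.00. Jun and Klf6 differed by -0.46 ± 0.13 and -0.33 ± 0.10, and Nr4a1 by 0.34 ± 0.12 (limma adjusted p = 0.390, 0.412 and 0.568). Another probe set of Jun gave -0.23 and overlapped, and others of Klf6 gave -0.09 and -0.03 and overlapped. Microglia and macrophage genes had a median of -0.12 over 20 tested, 14 below 0, with 1 higher and none lower without overlap. Within that list Cd68, of phagocytic lysosomes, and Aif1 gave -0.58 ± 0.18 and -0.51 ± 0.19 and overlapped, whereas P2ry12, the purinergic receptor of resting microglia, gave 0.36 ± 0.17 without overlap. Drd4, the dopamine receptor of photoreceptors whose RNA is higher at night, read 13.85, 13.67 and 14.09 at day 12, against 13.51, 13.08 and 13.05 at day 10, a difference of 0.66 ± 0.44 in room air (adjusted p = 0.866). The ages did not overlap, and a second, dimmer probe set of Drd4 gave 0.69 ± 0.30, also without overlap and not called. BCL2 family and caspase genes had a median of -0.10 over 18 tested, with Casp9 at -0.46 ± 0.16. Another probe set of Casp9 gave -0.01 and overlapped. Myelin and oligodendrocyte genes had a median of 0.04 over 5 tested. Medians of the remaining lists were 0.07 for the connecting cilium, 0.17 for reactive gliosis, 0.12 for cholesterol synthesis and uptake, 0.13 for the interferon response and MHC class I, -0.04 for antioxidant enzymes and metallothioneins, 0.06 for other collagens, 0.36 for the 2 tested night-time photoreceptor genes, and between 0.12 and 0.14 for red blood cell, skeletal muscle and surface epithelium genes.

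Genes of neighbouring tissue were not uniform. All 11 tested pigment epithelium and melanocyte genes were above 0, with a median of 0.23, and 1 of them was higher without overlap; the median was 0.00 without day 12 replicate 2 and turned to -0.14 without both arrays of replicate number 2. Of 15 tested lens genes 12 were below 0, with a median of -0.44, and every one of them overlapped; the median turned to 1.38 without day 12 replicate 1 and to 0.44 without day 10 replicate 3. Xist, the transcript of the inactive X chromosome, read 12.52, 10.19 and 10.73 at day 12, against 11.67, 11.90 and 8.72 at day 10. Eif2s3y, from the Y chromosome, read 7.09, 9.50 and 8.73 at day 12, against 8.67, 7.09 and 9.28 at day 10. It was at the floor in day 12 replicate 1 and day 10 replicate 2 alone, so the arrays of an age differed in sex content. What this adds to the spread was not tested.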
